A study of Mus musculus with 16 samples.

Results

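The genes described here encode the subunits of the mitochondrial respiratory chain and of ATP synthase, the machinery of oxidative phosphorylation. They were chosen by name among the protein-coding genes of the count table: Nduf genes of the A, B, C, S and V series, Sdha to Sdhd, and symbols beginning with Uqcr, with Cox4 to Cox8, with Atp5, or with mt-Nd, mt-Co, mt-Atp or mt-Cytb. Of 55487 gene identifiers, 100 were members: 87 were encoded in the nucleus and 13 in mitochondrial DNA. The nuclear members comprised 38 genes of complex I, 4 of complex II, 8 of complex III, 19 of complex IV and 18 of complex V, and the mitochondrial members 7, 0, 1, 3 and 2 genes of the same complexes. Ndufa4, grouped with complex I by its name, is known as a component of complex IV. A further 15 pseudogenes with matching symbols were not members. In all, 97 members had enough counts to be tested, and the 3 below the filter were Cox7b2, Cox8c and a second identifier of Atp5o.

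Complex I (NADH dehydrogenase) and complex II (succinate dehydrogenase, which is also an enzyme of the tricarboxylic acid cycle) feed electrons to ubiquinone, complex III passes them to cytochrome c and complex IV to oxygen. Complexes I, III and IV pump protons out of the matrix, and complex V, ATP synthase, uses the return flow to make ATP. Complexes I, III, IV and V are assembled from subunits of both genomes, while complex II is wholly nuclear. Nuclear subunit genes are transcribed from separate promoters, for which NRF1, ETS factors of the GABP type, estrogen-related receptors and YY1 are known regulators. The mitochondrial genes are cut from long precursor transcripts, so they are not independent of each other.

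RNA sequencing was done on 16 samples of mouse mammary organoids, which are cultures of breast epithelial cells that grow as small structures, kept here in a medium with EGF, Rspo1 and Noggin. The wild-type group (WT, n = 3) is labelled as normal breast. The PIK3CA mutant group (n = 4), the HER2 mutant group (n = 4) and the double mutant group with both (n = 5) are labelled as tumor breast, and the series names the alleles as HER2 V777L and PIK3CA H1047R. The labels used here give no age, strain, promoter or Cre line, and do not say whether replicates came from separate animals, so p-values measure the spread between these samples, which may be partly technical. Genotype and tissue source cannot be told apart in any comparison with WT. Levels are CPM, the usual scaling of read counts to library size, here to TMM-adjusted sizes, and differences are log2 fold changes from edgeR's quasi-likelihood test, with p-values adjusted by Benjamini-Hochberg over 24252 genes and called at 0.05. The interaction is the double mutant's difference from WT minus the sum of both single mutants' differences, on the log2 scale.

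Total counts were 45545182 to 64168308 per sample, and 3 counts corresponded to 0.0477 to 0.0668 CPM. Erbb2, the gene of HER2, was at 2696 to 4632 CPM in the HER2 and 1499 to 2751 CPM in the double mutant samples, against 144.7 to 188.1 CPM in the WT and PIK3CA samples. Luminal and basal epithelial markers were present in every group. The summed level of 8 macrophage markers was 1165 to 4308 CPM in WT and 239.6 to 773.5 CPM in the mutant samples, and all 8 had a mean of at least 1 CPM in WT, against 5 in the PIK3CA, 7 in the HER2 and 3 in the double mutant group. Adgre1, a defining macrophage marker, was at 0 in 3 mutant samples. Among 6 fibroblast markers, all 6 averaged at least 1 CPM in the WT, PIK3CA and HER2 groups and 4 in the double mutant, and their sum was 325.2 to 1899 CPM in WT and 26.2 to 623.7 CPM in the mutants. In bulk samples fewer cells of a type and less RNA per cell cannot be told apart, and the part of these cells in the differences from WT below was not tested. HER2 replicates 1 and 4 stood apart from the rest in a way that touches the members: the levels of whole chromosomes were shifted in them, as described further on. Most of the printed list medians and called genes that rest on the HER2 group are given with and without them. Called genes of other lists that are only counted are not.

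Several mitochondrial members have near-identical nuclear copies, and this bears on how their counts can be read. On chromosome 1 of GRCm38, chr1:24611535-24616197, the annotation lists 7 unprocessed pseudogenes copied from mitochondrial DNA. Gm28661 matched mt-Co2, Gm10925 matched mt-Atp6, Gm28437 matched mt-Co3 and Gm10222 matched mt-Nd4l without a mismatch over 98.99% to 99.87% of the gene's length. Gm28438 matched mt-Nd3 at 99.71% identity. Gm29216 covered 31.26% of mt-Co1 at 99.79% identity, and Gm28439 covered 63.57% of mt-Nd4 without a mismatch. The start of mt-Co2, at positions 7013 to 7696 of the mitochondrial genome on the plus strand, is printed because its first 60 bases are the same in Gm28661. The other windows are printed because they hold the only mismatch in the aligned part of their pair, which is in capitals.
mt-Co2 and Gm28661: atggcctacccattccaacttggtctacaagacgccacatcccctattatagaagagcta
mt-Nd3: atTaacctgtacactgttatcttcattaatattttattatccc
Gm28438: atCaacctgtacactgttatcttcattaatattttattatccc
mt-Co1: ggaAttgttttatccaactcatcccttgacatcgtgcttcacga
Gm29216: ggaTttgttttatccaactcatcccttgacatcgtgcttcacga
Reads from such stretches cannot be assigned to 1 copy by sequence, and how multiply mapped reads were counted is not given in the sources used here. Values of mt-Co2, mt-Co3, mt-Atp6, mt-Nd3 and mt-Nd4l are therefore uncertain, and those of mt-Nd4 and mt-Co1 are uncertain for the part that a copy covers. No annotated copy matched mt-Atp8, while its neighbours mt-Co2 and mt-Atp6 each have one. Whether an unannotated copy of mt-Atp8 lies between these on chromosome 1 was not tested, so its values may be uncertain too.

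The levels of the mitochondrial genes followed this division. Per kilobase of exon, mt-Co1, the catalytic core of complex IV, had the highest mean level of all members over the 16 samples, at 7328 CPM/kb. It was followed by mt-Nd1 at 2484, mt-Cytb at 2076, mt-Nd5 at 1514, mt-Nd2 at 1218, mt-Nd4 at 823 and mt-Nd6 at 530 CPM/kb. The genes with a copy over nearly their whole length were lower: mt-Co2 was at 69.8, mt-Atp6 at 46.8, mt-Co3 at 41.2, mt-Nd4l at 26.7 and mt-Nd3 at 4.27 CPM/kb, with mt-Atp8 at 5.54 CPM/kb. Their nuclear copies carried counts of the same order, with Gm28661 at 103.7 and Gm10925 at 70.7 CPM/kb. Adding the counts of all 7 copies to the mitochondrial total raised it from 2.56% to 2.60% of all counts in WT.

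**Figure D1:**
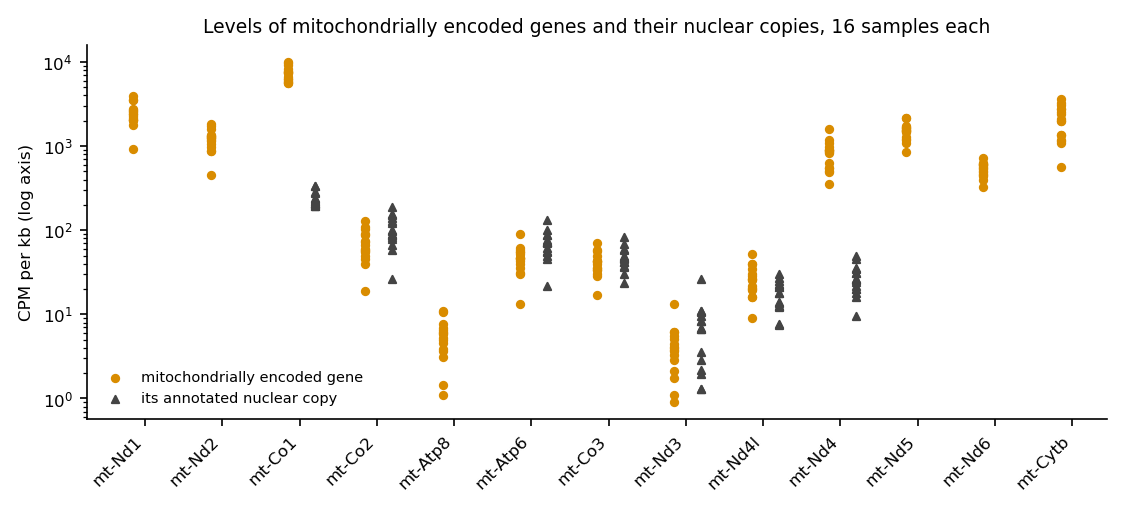
Mean level of the 13 mitochondrially encoded genes and of the annotated nuclear copies over 16 samples, in CPM per kilobase on a log axis. The 5 genes matched by a copy over nearly their whole length and mt-Atp8 lie at or under 69.8 CPM/kb, and the other 7 at or above 530 CPM/kb.

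Across genotypes, the mitochondrial genes had lower estimates in the single mutants than in WT, and none of the 13 was called in any of the 7 comparisons by edgeR, DESeq2 or limma in the fits of all samples. At an unadjusted p under 0.05 edgeR had 1 of 13 in each comparison with WT, 7.69%, and 0 in the others. All genes stood at 16.85%, 25.67% and 27.07% in PIK3CA, HER2 and the double mutant against WT. The 13 mitochondrial genes took 2.56% ± 0.61 of all counts in WT (SD, n = 3), 1.92% ± 0.28 in PIK3CA (n = 4), 2.07% ± 0.30 in HER2 (n = 4) and 2.202% ± 0.64 in the double mutant (n = 5). The highest share was 3.27% in WT replicate 1 and the lowest 1.25% in double mutant replicate 3, and the other WT samples were at 2.25% and 2.17%. Every mutant group overlapped WT, and 3 of 4 PIK3CA, 3 of 4 HER2 and 3 of 5 double mutant samples lay below all WT samples.

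mt-Cytb, the mitochondrial subunit of complex III and free of an annotated copy, was at 4174, 3140 and 3536 CPM in WT, at 2379, 1531, 2256 and 1308 in PIK3CA, at 2942, 1551, 1345 and 3150 in HER2, and at 3729, 1257, 649.1, 2279 and 2777 in the double mutant. Every PIK3CA sample lay below every WT sample, while a HER2 sample and a double mutant sample reached the WT range. The PIK3CA difference from WT was −0.95 on the log2 scale and did not pass the test. mt-Co1 was at 15240, 9798 and 8800 CPM in WT and at 11840, 10110, 11540 and 9586 in PIK3CA, and the groups overlapped. Its estimates stayed between −0.08 and 0.13 against WT in the 3 mutant groups. As a share of the mitochondrial counts mt-Co1 made up 45.4% ± 3.4 in WT, 54.5% ± 2.6 in PIK3CA, 52.5% ± 7.8 in HER2 and 56.8% ± 7.4 in the double mutant. The PIK3CA samples, at 51.9% to 56.8%, and the double mutant samples, at 49.6% to 67.1%, were all above the WT samples, at 42.0% to 48.8%. The HER2 samples, at 45.8% to 63.5%, overlapped WT.

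In PIK3CA against WT all 13 mitochondrial estimates were negative, with a median of −0.46, beside a median of −0.04 for the 84 nuclear genes and −0.03 for all genes. The 7 complex I genes gave −0.31 for mt-Nd1, −0.29 for mt-Nd2, −0.97 for mt-Nd3, −0.67 for mt-Nd4, −0.78 for mt-Nd4l, −0.45 for mt-Nd5 and −0.46 for mt-Nd6. Among the complex IV and V genes, mt-Co2 was at −0.81, mt-Co3 at −0.52, mt-Atp6 at −0.46 and mt-Atp8 at −0.04. None of the 97 members was called in this comparison by edgeR, DESeq2 or limma, where edgeR called 4.52% of all genes. At an unadjusted p under 0.05 there were 7 nuclear members, 8.33% of those tested, against 16.85% of all genes. The standard errors were larger for mitochondrial than for nuclear genes, with medians of 0.365 and 0.187. A fit with the PIK3CA and WT samples alone, whose spread is not shared with the other genotypes, called 6 mitochondrial genes lower. In it 18.3% of all genes were called. The 6 were mt-Cytb and mt-Nd6, and mt-Co2, mt-Co3, mt-Nd3 and mt-Nd4l, which have near-identical nuclear copies. This fit also called 8 nuclear members, with Cox7a2l, Cox7c, Uqcrfs1, Sdhc and Atp5g2 higher by 0.22 to 0.48 and Ndufb2, Ndufb7 and Cox5b at −0.55, −0.57 and −0.39. The groups did not overlap for 9 of 13 mitochondrial and 35 of 84 nuclear genes, against 29.5% of all genes.

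In HER2 against WT all 13 mitochondrial estimates were again negative, with a median of −0.50, and became −0.80 without HER2 replicates 1 and 4. The groups did not overlap for 4 of 13, against 22.2% of all genes. The largest differences were −0.92 for mt-Nd4l, −0.86 for mt-Nd3 and −0.75 for mt-Nd4, which were −1.20, −2.02 and −1.22 without those replicates, still with no call. All 3 genes are matched by a nuclear copy over much of their length, so these values are uncertain. In the double mutant against WT, 11 of 13 were negative, with a median of −0.27. This median depended on single samples, at −0.64 without double mutant replicate 1, −0.12 without double mutant replicate 3 and −0.18 without WT replicate 1. mt-Co2, at −0.87, was called only in the fit without double mutant replicate 1, at −1.22 with an adjusted p of 0.0292. The interaction estimate was positive for 13 of 13 genes, beside 50.6% of all genes, with a median of 0.62, and no gene was called for it. Its median was 0.98 without HER2 replicates 1 and 4 and 0.36 without double mutant replicate 1. Between mutants the median was 0.05 in HER2 against PIK3CA and −0.34 without HER2 replicates 1 and 4. In the double mutant against HER2 it was 0.16, and 0.32 without those replicates. Both this median and that of 0.12 in the double mutant against PIK3CA turned below 0 without double mutant replicate 1, at −0.03 and −0.10. The comparisons with WT share the WT samples, so their medians are not independent of each other.

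**Figure D2:**
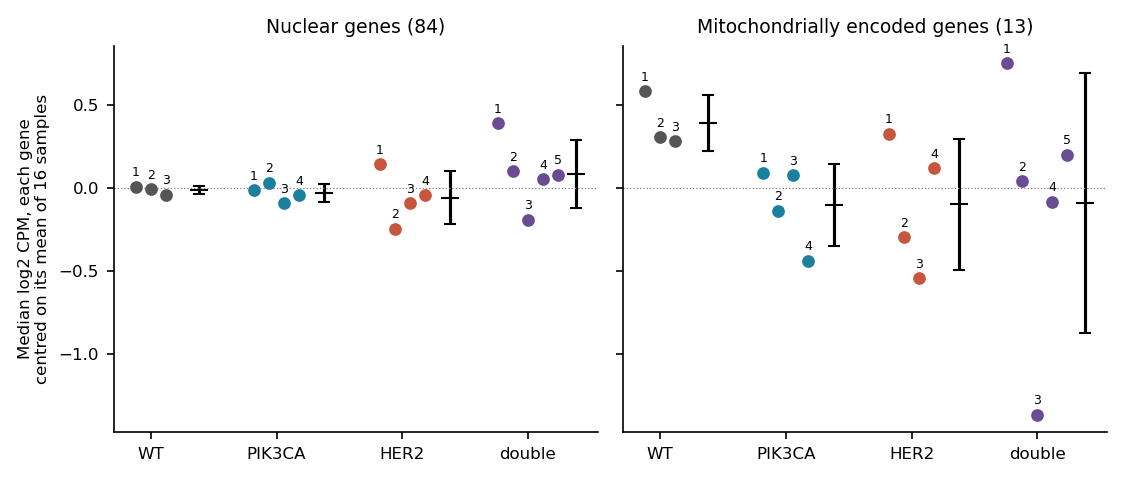
Level of the nuclear and of the mitochondrial genes in each of the 16 samples. The level is the median over genes of the log2 CPM difference from each gene's mean over samples. Points are samples and bars the mean ± SD of a genotype. The mitochondrial level of the WT samples lies between 0.28 and 0.58, and double mutant replicate 3 is lowest at −1.37.

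Set against the nuclear genes sample by sample, the mitochondrial level was 0.57, 0.31 and 0.32 above the nuclear one in WT, on a log2 scale centred over all samples. The PIK3CA samples were at 0.11, −0.17, 0.17 and −0.39, the HER2 samples at 0.18, −0.05, −0.45 and 0.16, and the double mutant samples at 0.36, −0.06, −1.18, −0.14 and 0.12. Every WT sample was above every single mutant sample, and double mutant replicate 1 reached the WT range. The ratio of summed mitochondrial to summed nuclear counts was 5.72 ± 1.30 in WT, 4.49 ± 0.77 in PIK3CA, 4.67 ± 0.19 in HER2 and 4.62 ± 0.84 in the double mutant. WT replicate 1 was highest at 7.22, and the other WT samples, at 4.99 and 4.95, lay within the range of the mutants.

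The nuclear genes as a whole stayed near their WT level. Their summed share was 0.447% ± 0.007 of all counts in WT, 0.431% ± 0.022 in PIK3CA, 0.443% ± 0.052 in HER2 and 0.468% ± 0.064 in the double mutant, and the groups overlapped. Over the 84 nuclear genes tested, the median log2 difference was −0.04 in HER2 against WT, and its sign was not stable. It was 0.01 under upper-quartile scaling and −0.18 without HER2 replicates 1 and 4, and leaving out a single sample gave −0.12 without HER2 replicate 1 to 0.04 without HER2 replicate 2. It was 0.13 in the double mutant against WT with 59 estimates above 0, 0.12 against HER2 with 61 above 0, and 0.12 against PIK3CA with 69 above 0. Medians over all genes were 0.01, −0.02 and 0.04 in the same comparisons. The nuclear shares above 0 were 70.2%, 72.6% and 82.1%, against 50.8%, 47.8% and 54.8% of all genes. The nuclear medians were smaller without double mutant replicate 1, at 0.05, 0.06 and 0.03. The first was 0.21 without double mutant replicate 3. The second was 0.24 without HER2 replicate 1, 0.06 without HER2 replicate 2, 0.30 without HER2 replicates 1 and 4, and 0.07 under upper-quartile scaling. In HER2 against PIK3CA the nuclear median was 0.00, and it was −0.14 without HER2 replicates 1 and 4, with −0.11 to 0.04 when a single sample was left out. For the interaction the nuclear median was 0.17, with 63 of 84 estimates above 0, 75% against 50.6% of all genes. That median was 0.29 without HER2 replicates 1 and 4, and 0.08 to 0.25 when a single sample was left out.

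**Figure D3:**
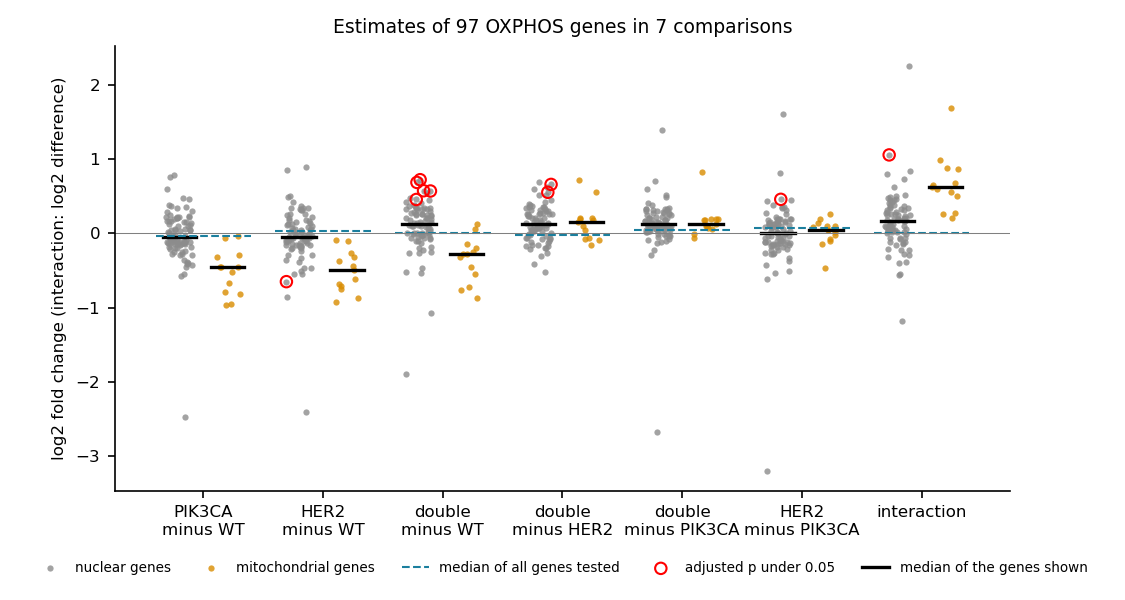
Log2 fold changes of the 84 nuclear and 13 mitochondrial genes tested in 7 comparisons; each point is a gene, black bars are medians of the genes shown, dashed lines the median of all 24252 genes, and rings mark adjusted p under 0.05. The ringed genes are all nuclear, 5 of them in the double mutant against WT, and the mitochondrial medians of −0.46 and −0.50 in the single mutants lie below the nuclear ones.

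Calls among the nuclear genes were few. Over the 679 gene and comparison pairs 10 were called, for 9 distinct genes, and 2 of these belonged to Sdhb. In HER2 against WT 1 of 84 was called, against 10.4% of all genes, and 10 of 84 did not overlap between groups, against 22.2%. In the double mutant against WT 5 were called, against 11.8% of all genes, all of them higher, against 5.03%, and 9 of 84 did not overlap between groups, against 23.0%. In the double mutant against HER2 2 were called, against 2.5%, and 2 did not overlap, against 4.59%. In HER2 against PIK3CA 1 was called, against 4.41%, and 8 did not overlap, against 12.5%. For the interaction 1 was called, against 1.06%. In the double mutant against PIK3CA 0 were called by edgeR and limma, against 0.672% of all genes by edgeR, and 4 by DESeq2, against 2.75% by DESeq2. There 11 had an unadjusted p under 0.05, 13.1% against 12.42% of all genes. Groups did not overlap for 3, against 7.92% of all genes. By edgeR in the fit of all samples, the share of nuclear members called in each comparison was close to or below that of all genes.

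For a few members the region around the transcription start is shown to place the results in sequence. RefSeq's table of promoters, on GRCm38.p6, held 68 of the 87 nuclear members, each with 250 bases before and 50 after the start. Exact matches on either strand were sought to GCGCATGCG (NRF1), CCGGAAGT (ETS factors), TCAAGGTCA (estrogen-related receptors) and AAGATGGCG (YY1), which do not overlap each other in the windows printed. The NRF1 letters were in 8 of 68 members, 11.8%, against 1.95% of 27025 genes in the table. The YY1 letters were in 7 members, 10.3% against 1.64%, the ETS letters in 5, 7.35% against 4.31%, and those of the estrogen-related receptors in 2, 2.94% against 0.466%. Uqcr11, a small subunit of complex III, held both NRF1 and ETS letters. Of the 9 called genes 8 were in the table, and among these Atp5j, the coupling factor 6 subunit of ATP synthase, was the only gene with a match, to YY1, in 1 of its 2 listed promoters. Uqcr10 and Uqcrfs1 are shown as genes higher in the double mutant, and neither held any of the 4 motifs. Capitals mark the matched letters, and all 4 windows are on the minus strand.
Uqcr11, chr10:80406772-80407071: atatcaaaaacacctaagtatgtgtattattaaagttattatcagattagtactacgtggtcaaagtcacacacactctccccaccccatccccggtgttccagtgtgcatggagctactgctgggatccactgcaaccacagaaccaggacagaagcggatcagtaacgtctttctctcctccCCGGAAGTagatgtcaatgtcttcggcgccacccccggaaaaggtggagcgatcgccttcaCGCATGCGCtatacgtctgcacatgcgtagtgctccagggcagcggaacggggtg
Atp5j, chr16:84834927-84835226: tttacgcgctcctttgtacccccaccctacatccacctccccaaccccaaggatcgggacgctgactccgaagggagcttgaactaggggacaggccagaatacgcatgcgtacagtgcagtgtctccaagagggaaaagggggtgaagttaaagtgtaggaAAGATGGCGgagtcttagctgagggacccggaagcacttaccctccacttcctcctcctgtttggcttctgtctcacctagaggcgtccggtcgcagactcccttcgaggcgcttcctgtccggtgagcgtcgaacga
Uqcr10, chr11:4704295-4704594: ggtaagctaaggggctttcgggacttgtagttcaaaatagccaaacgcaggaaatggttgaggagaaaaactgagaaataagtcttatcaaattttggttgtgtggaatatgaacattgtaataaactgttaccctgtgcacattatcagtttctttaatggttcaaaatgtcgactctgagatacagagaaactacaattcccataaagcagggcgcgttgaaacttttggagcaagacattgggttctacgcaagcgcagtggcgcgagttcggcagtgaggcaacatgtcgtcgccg
Uqcrfs1, chr13:30545267-30545566: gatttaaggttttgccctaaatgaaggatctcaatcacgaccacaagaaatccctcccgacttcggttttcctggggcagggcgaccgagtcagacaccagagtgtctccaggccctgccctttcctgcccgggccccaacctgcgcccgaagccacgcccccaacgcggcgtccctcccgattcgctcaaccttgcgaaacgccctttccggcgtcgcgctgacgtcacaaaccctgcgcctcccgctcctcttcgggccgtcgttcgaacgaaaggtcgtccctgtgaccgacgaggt
No binding was measured in these samples.

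Complex III held 3 of the 5 genes that were higher in the double mutant than in WT. Its 8 nuclear genes all had estimates above 0 in this comparison, against 50.8% of all genes, with a median of 0.27. The 3 of 8 that were called, 37.5%, were all higher. Of all genes 5.03% were called higher and 11.8% in either direction. Uqcrq (chr11:53427922-53430831), a small subunit at the ubiquinone-binding side of the complex, was at 33.1, 26.4 and 32.4 CPM in WT and at 62.5, 44.9, 39.6, 47.3 and 52.3 CPM in the double mutant. The groups did not overlap, while PIK3CA, at 25.3 to 33.1 CPM, overlapped WT and HER2, at 29.3 to 46.0 CPM, overlapped both. The rise over WT was 1.61-fold (log2 0.69 ± 0.17 SE, adjusted p = 0.0166), and the difference from PIK3CA was 0.71 with an adjusted p of 0.0504, which DESeq2 called with an adjusted p of 0.00351. Uqcrq kept its call against WT in all 10 other settings tried and lost it without WT replicate 2 and without WT replicate 3.

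Uqcrfs1 (chr13:30540308-30545362), the Rieske iron-sulfur protein, was at 47.1, 54.3 and 48.9 CPM in WT and at 79.3, 105.8, 62.4, 64.1 and 61.6 CPM in the double mutant. All 13 mutant samples lay above WT, with PIK3CA at 62.6 to 77.2 and HER2 at 61.9 to 81.7 CPM. In the fit of all samples only the double mutant's difference was called (log2 0.57 ± 0.17, adjusted p = 0.0380), and it lost the call without any 1 of the 3 WT samples or of double mutant replicates 1 and 2. Uqcr10 (chr11:4701973-4704342), a small subunit, was at 23.8, 21.4 and 19.0 CPM in WT and at 36.6, 27.5, 24.5, 28.9 and 29.4 CPM in the double mutant. Its groups did not overlap, and its log2 difference of 0.46 ± 0.14 (adjusted p = 0.0471) lost the call in 7 of 8 fits that left out a sample, all but the one without double mutant replicate 3. Uqcrc1, a core protein of the complex, was at 103.6 ± 2.8 CPM in WT and 103.6 ± 12.8 in the double mutant.

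**Figure D4:**
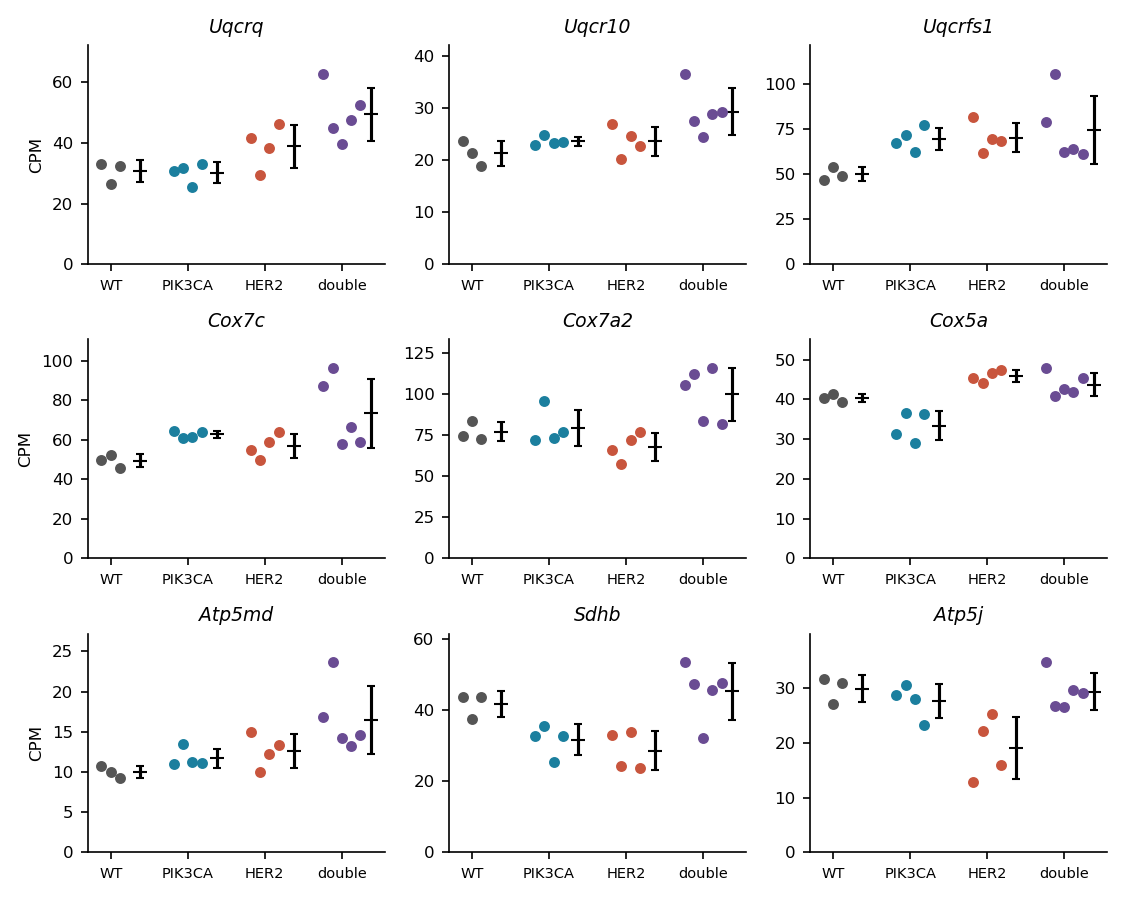
CPM of the 9 called genes in each of the 16 samples, by genotype; points are samples and bars the mean ± SD. Uqcrq, Uqcr10, Uqcrfs1, Cox7c and Atp5md have no double mutant sample in the range of WT, and Atp5j has its lowest samples, 12.8 and 15.95 CPM, in the HER2 group.

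In complex IV, Cox7c (chr13:86044816-86046904), a small structural subunit, was at 49.9, 52.5 and 45.8 CPM in WT and at 87.3, 96.3, 57.9, 66.4 and 59.1 CPM in the double mutant. The double mutant samples were all above WT, and replicates 1 and 2 were the highest. The log2 difference was 0.57 ± 0.16 (adjusted p = 0.0307). It lost the call without any 1 of the WT samples and without either double mutant replicate 1 or 2. Cox7a2, the widely expressed form of subunit 7a (chr9:79755361-79759878), was at 65.6, 57.2, 71.7 and 77.0 CPM in HER2 and at 105.1, 112.2, 83.6, 115.6 and 81.8 CPM in the double mutant. These groups did not overlap, while WT, at 72.8 to 83.7 CPM, overlapped both. The log2 difference was 0.55 ± 0.14 (adjusted p = 0.0464), and 0.63 with an adjusted p of 0.0694 without HER2 replicates 1 and 4. Cox7a2 lost the call in 5 of 9 fits that left out a sample and in 7 of 10 other settings. Cox5a (chr9:57521274-57532426), a subunit on the matrix side, was at 31.4, 36.6, 29.2 and 36.3 CPM in PIK3CA and at 45.4, 44.1, 46.6 and 47.4 CPM in HER2. Here WT, at 39.3 to 41.4 CPM, lay between the groups without overlap. HER2 was higher than PIK3CA by 0.46 ± 0.10 (adjusted p = 0.0205), and by 0.44 with an adjusted p of 0.0530 without HER2 replicates 1 and 4. The call was also lost without PIK3CA replicate 1 and without PIK3CA replicate 3, and in 4 of 10 other settings. In the double mutant against PIK3CA, edgeR did not call Cox5a in the fit of all samples. DESeq2 called it higher there, at 0.39 with an adjusted p of 0.00309. Cox6c, another structural subunit, was at 39.6 ± 2.3 CPM in WT and 39.7 ± 3.0, 43.5 ± 11.9 and 44.8 ± 9.1 CPM in PIK3CA, HER2 and the double mutant.

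In complex V, Atp5md (chr19:47083464-47090647), a small membrane subunit, was at 10.8, 9.95 and 9.23 CPM in WT and at 16.8, 23.7, 14.2, 13.2 and 14.6 CPM in the double mutant. The groups did not overlap, and double mutant replicate 2 was highest. The difference was 0.72 ± 0.20 (adjusted p = 0.0255), and it lost the call without any 1 of the WT samples. It overlaps Taf5, and reads of the overlap may not be assigned to 1 of the genes where counting ignored strand, which is not given in the sources used here. Atp5j (chr16:84827866-84835625) was at 31.5, 27.0 and 30.9 CPM in WT and at 12.8, 22.1, 25.3 and 15.95 CPM in HER2, with the lowest values in replicates 1 and 4. It fell by 0.65 ± 0.19 on the log2 scale (adjusted p = 0.0446). Without HER2 replicates 1 and 4 the difference was −0.33 with an adjusted p of 0.194, and the call was also lost without any 1 WT sample. Atp5j overlaps Gabpa. For the catalytic subunits no call was made: Atp5a1 was at 373 ± 7, 352 ± 15, 331 ± 48 and 357 ± 49 CPM and Atp5b at 403 ± 15, 420 ± 19, 379 ± 59 and 419 ± 85 CPM in WT, PIK3CA, HER2 and the double mutant.

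In complex II, Sdhb (chr4:140961203-140979193), the iron-sulfur subunit, was the only gene with a call for the interaction. It was at 43.7, 37.5 and 43.8 CPM in WT, at 32.7, 35.6, 25.4 and 32.9 in PIK3CA, at 32.9, 24.3, 33.8 and 23.6 in HER2 and at 53.5, 47.3, 32.0, 45.8 and 47.6 in the double mutant. Both single mutants lay below WT without overlap, and 4 of 5 double mutant samples lay above all 3 WT samples, with replicate 3 in the range of the single mutants. The double mutant was higher than HER2 by 0.66 ± 0.16 (adjusted p = 0.0448) and the interaction was 1.06 ± 0.24 (adjusted p = 0.0495). Without HER2 replicates 1 and 4 these were 0.64 with an adjusted p of 0.104 and 1.04 with an adjusted p of 0.0644. The call against HER2 was lost in 6 of 9 fits that left out a single sample, and the interaction call in 13 of 16. Sdha, the flavoprotein partner of Sdhb, was at 153 ± 6 CPM in WT and at 139 ± 3, 122 ± 14 and 132 ± 14 CPM in PIK3CA, HER2 and the double mutant, with no call in the fit of all samples. It was called lower in HER2 against WT without HER2 replicate 4, at −0.40 with an adjusted p of 0.0435.

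Complex I, the largest group, had 0 of 38 nuclear genes called by edgeR in the 7 comparisons in the fit of all samples. At an unadjusted p under 0.05 there were 1 to 5 genes in each, 2.63% to 13.2%, against 12.4% to 27.1% of all genes. DESeq2 called Ndufa4l2 in 2 comparisons and limma in 1. Without HER2 replicates 1 and 4, edgeR called Ndufa6 higher in HER2 than in WT, by 0.82 with an adjusted p of 0.0480, where 9.93% of all genes were called. In the double mutant against WT the median of the nuclear complex I genes was 0.01, with 23 of 38 estimates above 0, 60.5% against 50.8% of all genes. The core subunits Ndufv1 and Ndufs1, which carry NADH oxidation and iron-sulfur clusters, were at 40.4 ± 2.8 and 42.9 ± 2.4 CPM in WT and at 38.7 ± 4.4 and 43.2 ± 8.2 CPM in the double mutant. Ndufa9 was at 26.5 ± 1.4 and 26.3 ± 6.5 CPM, and Ndufb8 at 28.9 ± 2.2 and 24.3 ± 2.9 CPM, in the same groups. The widest spread was that of Ndufa4l2, a paralog of Ndufa4 known as a hypoxia-responsive gene. It was at 2.95, 21.2 and 10.96 CPM in WT, at 27.5, 26.7, 4.03 and 22.7 in PIK3CA, at 0.509, 2.41, 5.65 and 0.307 in HER2 and at 1.68, 1.32, 5.67, 4.82 and 2.33 in the double mutant. PIK3CA replicate 3 lay among the HER2 and double mutant samples and the other 3 above them. The difference of HER2 from PIK3CA was −3.19 with an adjusted p of 0.0502, and it was −4.23 with an adjusted p of 0.0229 without HER2 replicate 3 and −2.33 with an adjusted p of 0.151 without HER2 replicates 1 and 4. DESeq2 and limma called it in all samples, at −3.19 and −3.70 with adjusted p of 0.00559 and 0.0242. In the double mutant against PIK3CA edgeR did not call Ndufa4l2 in the fit of all samples, while DESeq2 did, at −2.67 (adjusted p = 0.0419). EdgeR called this difference with only these genotypes, at −2.67 (adjusted p = 0.0446), and without HER2 replicates 1 and 4, at −2.68 (adjusted p = 0.045). Against WT, Ndufa4l2 was called lower in HER2 without HER2 replicate 3, at −3.44 (adjusted p = 0.0354). Ndufa4l2 overlaps Shmt2. Ndufa4 itself was at 70.8 ± 20.4 CPM in WT and 51.9 ± 4.0, 70.5 ± 19.6 and 65.0 ± 20.4 CPM in the mutants.

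Among subunits with several isoforms, the widely expressed form dominated for Cox4, Cox6a, Cox6b, Cox7b and Cox8, on the scale of mean CPM per kilobase over the 16 samples. Cox8a, the highest nuclear member, was at 483 CPM/kb and Cox8b at 0.791. Cox6a1 was at 99.4 and Cox6a2, the form known from heart and skeletal muscle, at 0.294, Cox6b1 at 121 and Cox6b2, known from testis, at 1.53. Cox4i1 was at 51.3 and Cox4i2, known from lung and as responsive to oxygen, at 2.49. Cox7a2 was at 87.2, Cox7a2l at 76.2 and Cox7a1, another muscle form, at 6.94 CPM/kb. In CPM, without the division by length, Cox7a2l was above Cox7a2, at 112.7 against 82.35. Cox7b was at 56.9 CPM/kb, while Cox7b2 had 0 counts in each sample and Cox8c at most 2. Skeletal muscle markers summed to at most 3.43 CPM in any sample. The 3 genes for the c subunit of ATP synthase were all present, with Atp5g3 at 41.1, Atp5g2 at 32.8 and Atp5g1 at 8.43 CPM/kb. In CPM these 3 genes were closer, at 89.7, 54.9 and 41.4. In the fit of all samples edgeR called no isoform other than Cox7a2. DESeq2 also called Cox6a1 in the double mutant against PIK3CA, at 0.41 with an adjusted p of 0.0330, and the fit of PIK3CA and WT alone called Cox7a2l and Atp5g2, as given above.

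The levels of nuclear members in HER2 replicates 1 and 4 went in part with their chromosomes. Over 13296 genes with a mean log2 CPM of at least 1, members left out, the median difference from the WT mean was taken for each chromosome in each sample. In HER2 replicate 1 it was above 0.15 on 8 chromosomes, up to 0.51 on X, and below −0.15 on 11, down to −0.35 on chromosome 16. In HER2 replicate 4 it was −0.67 on chromosome 4 and 0.40 on chromosome 6. The extremes of the other 14 samples lay between −0.13 and 0.18. The part of chromosome 16 from position 70000000 on, with 89 genes, was at −1.14 in HER2 replicate 1 and −0.64 in HER2 replicate 4.

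Members went with this division in part. In HER2 replicate 1, 33 of the 38 nuclear members on the raised chromosomes were above their WT mean, with a median of 0.44, against 18 of the 42 on the lowered chromosomes, with a median of −0.04. The other genes of the raised and lowered chromosomes had medians of 0.29 and −0.26 in this sample. The members of both sets were thus higher than the other genes there, and those on lowered chromosomes stayed near WT. In HER2 replicate 2 the same 38 and 42 members had 9 above WT in each set. All 3 members on X were raised in HER2 replicate 1, by 0.91 for Ndufa1 up to 1.05 for Cox7b. All 4 on chromosome 4 were lower in HER2 replicate 4, with Ndufs5 at −1.43, Sdhb at −0.82, Uqcrh at −0.79 and Ndufb6 at −0.57. Sdhb was nearly as low in HER2 replicate 2, at −0.77, where chromosome 4 was at −0.09. On chromosome 6, 3 of 4 members were above WT in HER2 replicate 4, from −0.01 for Ndufa5 to 0.50 for Ndufa4, and 2 of 4 in HER2 replicate 1, where chromosome 6 was at 0.26. On distal chromosome 16, Atp5j was at −1.21 and −0.90 and Atp5o, another ATP synthase subunit, at −0.87 and −0.52 in HER2 replicates 1 and 4.

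Across the 84 nuclear genes, Pearson's r between a member's difference from WT and the median difference of its neighbours within 5 Mb was 0.461 in HER2 replicate 1 (Spearman's rho 0.594) and 0.33 in HER2 replicate 4 (0.272). In the other 14 samples r was −0.0334 to 0.12. Genes of a region share neighbours, so the points are not independent. When the neighbours' shift was entered as an offset, chosen after seeing the data, the Atp5j difference from WT in HER2 was −0.42 with an adjusted p of 0.0871, and Sdhb in the double mutant against HER2 was 0.43 with an adjusted p of 0.221. Cox7a2 was at 0.31 with an adjusted p of 0.180 in the same fit, whereas Cox5a in HER2 against PIK3CA was at 0.57 with an adjusted p of 0.00526. Uqcrq, Uqcr10 and Atp5md kept their calls in the double mutant against WT in this fit, where 12.9% of all genes were called, and Cox7c and Uqcrfs1 were at adjusted p of 0.0516 and 0.0599. This fit also called Sdha lower in the double mutant than in WT, at −0.45 with an adjusted p of 0.0374. In HER2 against WT, where it called 10.1% of all genes, it called Ndufa5 lower, at −1.02 with an adjusted p of 0.0353. In the double mutant against PIK3CA the same fit called 0.932% of all genes, among them Cox5a at 0.43 and Uqcrq at 0.67. Their adjusted p were 0.0393 and 0.0485. DNA copy number was not measured here, and the cause of the shifts was not tested.

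**Figure D5:**
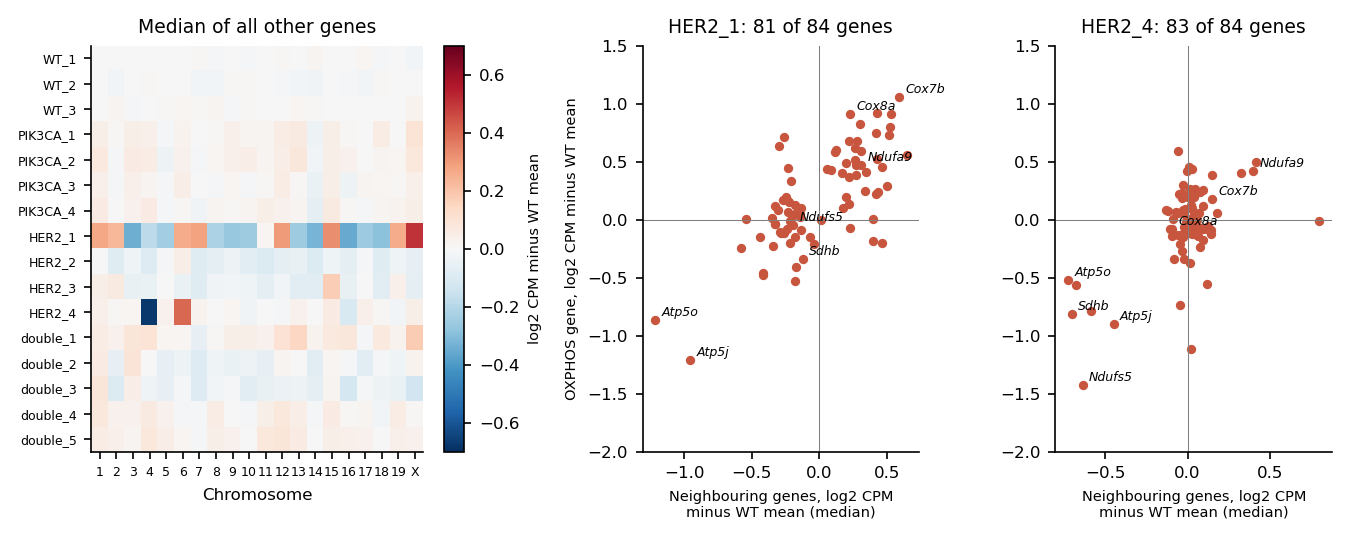
Difference of each nuclear member from its WT mean against the median difference of neighbouring genes within 5 Mb, both in log2 CPM, for HER2 replicates 1 to 4; each point is a gene. Points spread along the diagonal in HER2 replicate 1 (r = 0.461) and HER2 replicate 4 (r = 0.33), and 3 genes in the first and 1 in the last lie outside the axes.

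Genes that act with the subunits were counted from lists of names. Among 13 regulators, Esrrg, an estrogen-related receptor, rose in all 3 mutant groups, from 3.03 ± 0.69 CPM in WT to 27.1 ± 2.5 in PIK3CA, 13.5 ± 9.8 in HER2 and 19.5 ± 5.0 in the double mutant. Its log2 differences were 3.16, 2.16 and 2.69, with adjusted p of 0.00135, 0.00772 and 0.00120, and its interaction was −2.64. The HER2 samples were uneven, and without HER2 replicates 1 and 4 the HER2 difference was 0.97 with an adjusted p of 0.0318 and the interaction −1.45. Myc rose by 1.67 in HER2 and 1.25 in the double mutant, and Pprc1, a coactivator of the PGC-1 family, by 0.65 in each. Without HER2 replicates 1 and 4 Myc was at 1.58 and Pprc1 at 0.65 in HER2, both still called. Gabpa differed between HER2 and PIK3CA by −0.57 (adjusted p = 0.0367) and lies in the lowered part of chromosome 16, at −0.91 and −0.68 in HER2 replicates 1 and 4. Without them the difference was −0.33 with an adjusted p of 0.157. Ppargc1a, Ppargc1b, Esrra, Nrf1 and Yy1 were not called.

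The counts of the lists that follow stand beside calls by edgeR against WT of 4.52% of all genes in PIK3CA, 10.4% in HER2 and 11.8% in the double mutant. Of 46 assembly factors tested, 1 was higher in PIK3CA, 3 were lower in HER2 and 0 were called in the double mutant. There 4 of 46 had an unadjusted p under 0.05, beside 27.07% of all genes. Acad9, needed for complex I assembly, was at 93.8 ± 6.5 CPM in WT, 134.6 ± 11.4 in PIK3CA, 57.8 ± 10.98 in HER2 and 107.2 ± 12.1 in the double mutant, and HER2 minus PIK3CA was −1.22 (adjusted p = 0.000502). Its neighbours within 5 Mb were at −0.52 in HER2 replicate 1, and without HER2 replicates 1 and 4 the difference was −1.06 with an adjusted p of 0.00169. Ndufaf6, also of complex I assembly, rose in PIK3CA by 0.63, a call that was lost in all 7 fits without a single sample. Its HER2 minus PIK3CA difference was −0.93, and −0.96 with an adjusted p of 0.00915 without HER2 replicates 1 and 4. Its neighbours were at −0.32, −0.28, −0.28 and −0.73 in HER2 replicates 1 to 4, and with the neighbour offset the difference was −0.52 with an adjusted p of 0.0654. Among 29 genes of mitochondrial DNA expression, Top1mt, the mitochondrial topoisomerase, rose in HER2 by 0.64 and Fastk in the double mutant by 0.42. Top1mt lost its call in 6 of 7 fits without a single sample, and was at 0.66 with an adjusted p of 0.0561 without HER2 replicates 1 and 4. Tfam, the main packaging and transcription factor of mitochondrial DNA, was at 20.1 ± 0.4 CPM in WT and 20.02 ± 1.6, 17.7 ± 2.0 and 18.7 ± 3.5 CPM in PIK3CA, HER2 and the double mutant, with no call.

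Of 77 mitochondrial ribosomal protein genes tested, 1 was lower in PIK3CA, and 1 was higher and 1 lower in HER2 against WT. Mrps6, on distal chromosome 16, fell by 1.25 in PIK3CA and fell by 1.23 in HER2. It was at −2.14 and −1.50 against WT in HER2 replicates 1 and 4, where its neighbours were at −1.20 and −0.72, and at −1.10 and −0.53 in HER2 replicates 2 and 3. Without HER2 replicates 1 and 4 the HER2 difference was −0.82 with an adjusted p of 0.0624, and with the neighbour offset −0.82 with an adjusted p of 0.0234. Of 16 genes of the tricarboxylic acid cycle, Pdha1 rose in the double mutant by 0.61 and Ogdh fell by 0.50 in HER2, which was −0.45 with an adjusted p of 0.109 without HER2 replicates 1 and 4. Pdha1 is on X, and with the neighbour offset it was at 0.42 with an adjusted p of 0.127. Of 14 genes of the outer and inner membrane and matrix that reflect mitochondrial content, Hspa9, a matrix chaperone, and Vdac1, the outer membrane channel, rose in the double mutant by 0.87 and 0.86. In the single mutants 0 of 14 were called. There 1 in PIK3CA and 2 in HER2 had an unadjusted p under 0.05, beside 16.85% and 25.67% of all genes. Cycs, the cytochrome c that links complexes III and IV, rose in the double mutant by 0.72, from 13.1 ± 2.0 CPM in WT to 21.6 ± 4.4 CPM, and lost its call in 7 of 8 fits without a single sample. Over these lists and the regulators, 9 of 35 called pairs of gene and comparison kept their call in every fit without a single sample.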

How the data were processed

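RNA was extracted with an RNeasy kit and libraries were made with a SMARTER mRNA-seq kit, per the labels' protocols. Per the submitters' processing notes, the authors used bcl2fastq 2.20, STAR 2.0.4b, Subread featureCounts 1.4.5 and DESeq2 1.33.5 with mm10 (GRCm38). The annotation, strandedness and treatment of multiply mapped reads are not given in the sources used here. The authors deposited raw read counts per gene for 16 samples, and a table of normalized values (a signal equal to each count divided by 1 factor per sample, to a relative deviation of 5.55e-10 at most). Of 55774 table rows, 287 repeated an identifier and were dropped. Gene positions and exon lengths came from GENCODE release M21, which held 55141 of the identifiers and all 100 members.

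Counts were fitted in edgeR 4.0.16 (R 4.3.3) over the 16 samples with genotype as the only term, after filterByExpr and TMM scaling; quasi-likelihood tests were adjusted by Benjamini-Hochberg over 24252 genes and called at 0.05. CPM used TMM-scaled library sizes, log2 CPM a prior count of 2, and a count of 3 served as the floor; floors cover counting error only. Standard errors are the absolute log2 fold change divided by the square root of F. The genes named were the mitochondrial genes, core subunits, isoform groups and, per comparison, up to 5 called members in each direction; other pathway lists were given up to 4 genes. The members and all lists were chosen with earlier results of these data known. Alternatives were 2 other scalings, scaling without the mitochondrial genes, no filter on low counts, a block for the replicate number, only the genotypes compared, each replicate left out, DESeq2 1.42.0, and limma 3.58.1 on log2 of the normalized values plus 1. The fits without HER2 replicates 1 and 4 and with an offset for neighbouring genes were added after seeing the data. The fits were tested on simulated data.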

Additional observations from a re-analysis of the deposited data

Results flagged for a closer look

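Within genotypes, 148 groups of 4 or 5 samples were checked for a sample far from the others by Dixon's rule at the 95% level, and 8 were flagged, where chance alone flags about 1 in 20. In HER2 replicate 1, Atp5g1 was at 68.9 CPM with the next sample at 34.5, and Ndufb8 at 40 CPM with the next at 24.5. Against WT, the neighbours of Atp5g1 within 5 Mb were at 0.51 and those of Ndufb8 at 0.27 on the log2 scale in that sample, and their part in these values was not tested. In the PIK3CA group Atp5g2 was lowest at 58.7 CPM in replicate 1, Atp5md highest at 13.4 CPM in replicate 2, and mt-Nd4l lowest at 4.82 CPM in replicate 4. Double mutant replicate 1 was flagged for Cox6b2, lowest at 0.993 CPM, for mt-Nd3, highest at 4.66 CPM, and for Cox8c, at 0.0177 CPM against 0 in the other 4, which lies below the level of 3 counts.

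The interaction of Sdhb was flagged because the PIK3CA mutation went with different changes on the WT and on the HER2 background. It was 1.06 on the log2 scale, with an adjusted p of 0.0495 in edgeR's quasi-likelihood test.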

How the results depend on the processing

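No direction of a named gene's call or estimate past the threshold reversed in any fit. Over named genes and comparisons, 2947 fits that left out 1 replicate kept their side of the threshold, 53 lost and 8 gained a call; over the other settings 3175 kept it, 38 lost and 27 gained a call. The medians of the mitochondrial genes kept their sign under each scaling tried.

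Counts of called nuclear members that moved by more than 1.5 times were as follows. With only the genotypes compared, PIK3CA against WT had 8 nuclear and 6 mitochondrial genes in place of 0, HER2 against WT 0 in place of 1, the double mutant against WT 1 in place of 5, against HER2 0 in place of 2 and against PIK3CA 2 in place of 0, and HER2 against PIK3CA 0 in place of 1. The share of all genes called moved as well. In the same order it went from 4.52% to 18.3%, 10.4% to 2.37%, 11.8% to 11.7%, 2.5% to 0.168%, 0.672% to 1.69% and 4.41% to 2.49%. With no low-count filter the counts were 0 for HER2 against WT, 2 for the double mutant against WT, 1 for the double mutant against HER2 and 0 for the interaction, beside 4.69%, 5.61%, 1.57% and 0.651% of all genes. Upper-quartile scaling gave 0 for HER2 against WT, 1 for the double mutant against HER2 and 1 against PIK3CA, beside 10.2%, 2.61% and 0.726% of all genes. Median-of-ratios scaling gave 2 for HER2 against PIK3CA and 0 for the interaction, beside 4.47% and 1.02% of all genes. DESeq2 gave 4 for the double mutant against HER2, 4 against PIK3CA and 3 for HER2 against PIK3CA, beside 7.07%, 2.75% and 9.15% of all genes. In the same comparisons limma gave 0, 0 and 2, beside 2.01%, 0.684% and 4.63%, and 0 for the interaction, beside 1.21%.

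Without HER2 replicates 1 and 4 the counts were 0 for the double mutant against HER2, 2 against PIK3CA, 0 for HER2 against PIK3CA and 0 for the interaction, beside 2.87%, 1.87%, 4.89% and 1.88% of all genes. The nuclear median was then 0.295 for the double mutant against HER2 and −0.144 for HER2 against PIK3CA. With the neighbour offset the counts were 0 for the double mutant against HER2, 2 against PIK3CA and 0 for the interaction, beside 2.14%, 0.932% and 1.01% of all genes. The cause was not tested.

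Whether replicate numbers pair the samples is not given by the labels and was not settled by the data. Same-numbered samples of the double mutant and HER2 correlated in their deviations at a mean of 0.157, with a lowest value of 0.0711, against −0.0408 for other pairs. For PIK3CA and WT the means were 0.0425 and −0.0143. Elsewhere the mean of same-numbered samples was below 0, and not every sample correlated best with its own number. With a replicate block the counts were 0 for HER2 against WT, 0 for the double mutant against HER2, 0 for HER2 against PIK3CA and 0 for the interaction, beside 6.7%, 0.487%, 2.28% and 0.144% of all genes.

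Leaving out each replicate gave 0 to 2 nuclear genes for HER2 against WT, 0 to 5 for the double mutant against WT, 0 to 3 against HER2, 0 to 1 against PIK3CA, 0 to 3 for HER2 against PIK3CA and 0 to 1 for the interaction, and 0 to 1 mitochondrial genes for the double mutant against WT. In the order of the nuclear counts, these fits called 2.92% to 11.2%, 4.68% to 12.3%, 1.06% to 4.03%, 0.0701% to 0.593%, 1.76% to 4.83% and 0.215% to 1.59% of all genes. Depth limits Cox8b and Cox6a2, at mean levels of 0.285 and 0.200 CPM, and Cox7b2 and Cox8c, which had too few counts to be tested.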

Other observations

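Mitochondrial ribosomal RNA (mt-Rnr1 and mt-Rnr2) made up 0.0033% ± 0.0003 of all counts in WT, 0.0040% ± 0.0010 in PIK3CA, 0.0044% ± 0.0025 in HER2 and 0.0091% ± 0.0078 in the double mutant. The last mean rested on double mutant replicates 1 and 2, at 0.0151% and 0.0198%. Replicates 3, 4 and 5 were at 0.0031%, 0.0039% and 0.0035%, and WT samples at 0.0029% to 0.0036%. The medians were 0.0034% in WT and 0.0039% in the double mutant, and edgeR called neither gene in any comparison.

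The gene with the symbol 1110008P14Rik, counted in a list of subunits outside the naming rule although no role in oxidative phosphorylation is established for it, was at 100.4 ± 12.8 CPM in WT, 224.1 ± 17.4 in PIK3CA, 213.5 ± 110.4 in HER2 and 292.0 ± 72.0 in the double mutant. It was called higher than WT by edgeR's quasi-likelihood test in all 3 mutant groups, with log2 differences of 1.16, 1.09 and 1.54 and adjusted p of 0.0486, 0.0390 and 0.00454. The PIK3CA call was lost in all 7 fits without a single sample, and the HER2 difference was 0.97 with an adjusted p of 0.0307 without HER2 replicates 1 and 4.

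Citrate synthase (Cs), a tricarboxylic acid cycle enzyme often used as a gauge of mitochondrial content, was at 164.2 ± 8.0 CPM in WT, 170.9 ± 14.2 in PIK3CA, 181.4 ± 25.5 in HER2 and 212.2 ± 16.9 in the double mutant, with no call.

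Cidea, a lipid droplet protein counted among brown adipocyte markers, was at 50.9 CPM in HER2 replicate 2 and at most 7.36 CPM in the other 15 samples, while Ucp1, the uncoupling protein that defines brown fat, was at 0 in 9 of 16 samples and at most 0.0778 CPM.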
